A study of Mus musculus with 31 samples.

Results

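The genes that load ribosomes onto mRNA, move them along it and charge tRNAs with amino acids were followed in a mouse T helper 2 cell clone after the peptide neuromedin U (NmU). Members were chosen by a naming rule that uses no signal values, though earlier results of these data were known when it was set. It takes each probe set (a group of short probes for 1 transcript) that is no array control and has a single gene symbol. The symbol begins with Eif or Eef and a digit, or ends in ars, ars1 or ars2 for an aminoacyl-tRNA synthetase. The rule found 70 of the 8251 genes with a probe set of their own, measured by 92 of 12422 probe sets. It also took in Eef1akmt1, a methyltransferase gene named after its substrate eEF1A, and it left out Eprs, Farsa and Farsb, whose symbols have other endings. 1 probe set shared by Eif4a3 and other symbols was left out.

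D10.G4.1 cells, which are 1 clone of mouse type 2 helper T cells, received NmU or phosphate-buffered saline (PBS) and were collected at 0.8, 3, 6 or 12 h. The labels name no dose, stimulus or genotype beyond this, and all 8 groups share the clone. Each group had 4 arrays except NmU at 3 h, with 3, and 31 arrays were used in all. The labels give replicates a number and nothing on their origin, and each p-value rests on the spread among arrays, part or all of which may be technical.

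Translation starts when the eIF2 complex brings the initiator tRNA to the small ribosomal subunit, where eIF1, eIF1A, eIF3 and eIF5 hold it while the start codon is found. The eIF4 factors bind the mRNA cap and unwind the leader, and eIF4E-binding proteins block that step until mTOR phosphorylates them. Kinases that phosphorylate eIF2 prevent eIF2B from recharging it with GTP. eEF1A then delivers charged tRNAs, made by the synthetases, and eEF2 moves the ribosome on. T cells are known to raise protein synthesis on activation, and much of that control lies in phosphorylation, which arrays do not read.

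Of the genes that passed a test below, Eef2k, Eif2b5 and Fars2 had an entry in the RefSeq promoter table. Eif1a and Rars had none. The 250 bases before the start sites of Eef2k, Eif2b5 and Fars2 are shown because they let a reader see what lies upstream. They are on the plus strand of GRCm38.p6, at chr7:120842581-120842830 for Eef2k (the first of its 3 listed windows), chr16:20498567-20498816 for Eif2b5 and chr13:36117393-36117642 for Fars2. Capitals mark the E-box CACGTG, the letters bound by MYC and related factors.
Eef2k: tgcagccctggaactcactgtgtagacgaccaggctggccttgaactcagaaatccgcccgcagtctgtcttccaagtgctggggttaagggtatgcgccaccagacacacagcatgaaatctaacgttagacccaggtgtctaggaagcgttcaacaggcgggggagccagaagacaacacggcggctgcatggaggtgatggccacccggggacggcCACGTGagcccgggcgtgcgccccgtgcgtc
Eif2b5: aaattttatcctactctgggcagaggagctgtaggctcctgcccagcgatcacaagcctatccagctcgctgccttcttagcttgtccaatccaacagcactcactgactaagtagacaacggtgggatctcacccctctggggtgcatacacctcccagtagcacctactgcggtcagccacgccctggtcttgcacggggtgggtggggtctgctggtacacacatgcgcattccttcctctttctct
Fars2: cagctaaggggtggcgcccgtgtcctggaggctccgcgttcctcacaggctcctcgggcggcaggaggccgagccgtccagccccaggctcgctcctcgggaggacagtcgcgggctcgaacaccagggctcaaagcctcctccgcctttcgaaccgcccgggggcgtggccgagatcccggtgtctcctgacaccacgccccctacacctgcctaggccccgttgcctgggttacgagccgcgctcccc

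The Eef2k window shown held 1 E-box, 31 bases before the start. Promoters of 55 member genes were listed, in 70 windows of 250 bases. The E-box, which reads the same on both strands, occurred in 13 windows (18.6%) against 6.02% of all 32851 windows of that length. Its 11 genes were Aars, Eef2, Eef2k, Eif1b, Eif3f, Eif3k, Eif4a1, Eif4e, Eif4h, Eif5a and Iars. The C/EBP-ATF response element TGATGNAA, searched on both strands, had no match in the windows shown above. It occurred in 5 windows (7.14%) against 3.45% of all, in Aars, Eef2k, Eif2s3x, Gars and Tars. The 10 tested probe sets of genes with an E-box had median log2 differences of 0.04, -0.07, -0.09 and 0.02 at 0.8, 3, 6 and 12 h, with 6, 4, 4 and 7 above 0. The 53 of genes without one had -0.0070, 0.03, 0.02 and 0.06, with 25, 30, 29 and 31 above 0, so that the order of the medians was not the same at all times. A match is a description of the letters and shows no binding.

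The clone's markers were present: Gata3 lay between 1815 and 2842 signal units and Cd4 between 230.4 and 334.2, while Thy1 was at the signal floor of 5.8 on 20 of 31 arrays. Cd8a was at the floor on 26 arrays, Lyz2 on 28 and Itgam on 31. Low signals were present for the B cell markers Cd79a (22.4 to 88.7) and Ms4a1 (22.4 to 74.1). Of the same list, Cd79b read 3.4 to 35.6, with 3 arrays at the floor, and Cd22 was at the floor on 18. Low signals were also present for the macrophage markers Cd14 (54.5 to 123.3), Cd68 (25 to 56.2) and Csf1r (16.9 to 45.5). Fcgr3, of that list, read 4 to 31.4, with 5 arrays at the floor. The dendritic cell markers Itgax, Flt3 and Xcr1 read 55.4 to 166.4, 63 to 147.3 and 14.2 to 44.5. The Col1a2 probe set read 251.5 to 508.7 beside Col3a1 at 1.4 to 22.3. What these signals come from was not tested. Array medians of the correlation with the rest of their group ran from 0.958, in PBS at 3 h replicate 4, to 0.975.

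Members were tested if their mean log2 signal in at least 1 group exceeded the array set's 40th percentile, 20.2 signal units. 81 probe sets for 66 genes passed, and 11 did not, with mean signals between 2.71 and 9.75. The 4 genes with no tested probe set were Eef1g, Eif2s3y, Eif4enif1 and Eif4h. The lowest mean signals were 2.71 for Eef1g and 2.80 for Eif3b 161743_i_at, and the highest were 8264 for Eef1a1 and 2624 for Eef2.

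Few of these genes passed the test. A member is called here where limma's adjusted p, over all 7930 probe sets tested, was under 0.05, and differences are log2 NmU over PBS with their standard error. At 3 h, 5 of 81 members were called (6.17%) against 10.2% of all probe sets tested: Eif1a with both of its probe sets and Rars were higher (3 probe sets, against 4.44% of all called higher), and Eif2b5 and Fars2 lower (2 probe sets, against 5.73%). At 6 h, 2 were called (2.47%, against 4.88% of all), both for Eif1a and both higher, as were 2.85% of all. No member was called by limma at 0.8 h, where 0.845% of all probe sets were, or at 12 h, where 1.26% were. In bulk RNA from a culture, fewer cells of a kind and less RNA per cell cannot be told apart, and the arrays share 1 mean, so that each difference is relative to the other transcripts.

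Counts at an unadjusted p under 0.05 were 3 members at 0.8 h (3.70%, against 6.80% of all), 17 at 3 h (21.0%, against 24.1%), 11 at 6 h (13.6%, against 17.4%) and 6 at 12 h (7.41%, against 11.1%). The arrays of the 2 treatments did not overlap for 1, 16, 9 and 4 members at the 4 times in turn, or 1.23%, 19.8%, 11.1% and 4.94% of members. The same was true of 5.02%, 18.7%, 12.0% and 7.49% of all probe sets tested. At 3 h the share without overlap was thus close to the background.

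The call counts moved with single arrays. At 3 h the count fell to 3 without PBS at 0.8 h replicate 3, NmU at 0.8 h replicate 2, PBS at 3 h replicate 2, PBS at 6 h replicate 2 or NmU at 6 h replicate 1. It was 2 without PBS at 3 h replicate 3 or NmU at 3 h replicate 1 or 2, and 1 without NmU at 3 h replicate 3. At 6 h it was 1 without PBS at 6 h replicate 1, 2 or 4 or NmU at 6 h replicate 2. With arrays scaled to a common median, 1 member was called at 3 h and 0 at 6 h.

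The members as a body stayed near 0. Their median log2 difference was 0.0040 at 0.8 h, 0.04 at 3 h, 0.05 at 6 h and 0.04 at 12 h, beside -0.04, -0.03, 0.02 and -0.02 for all probe sets tested. Differences above 0 numbered 41, 45, 48 and 50 of 81 (50.6%, 55.6%, 59.3% and 61.7%), beside 39.2%, 45.6%, 53.1% and 45.9% of all. The arrays were precise enough to bound most members: at 3 h the 95% interval lay within a 2-fold change in either direction for 71 of 81 members (87.7%, against 79.8% of all) and within 0.5 log2 units for 42 (51.9%, against 34.3%). At 0.8, 6 and 12 h the intervals of 74, 72 and 75 members lay within the 2-fold bounds (91.4%, 88.9% and 92.6%, against 86.8%, 85.3% and 86.7% of all).

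**Figure D1:**
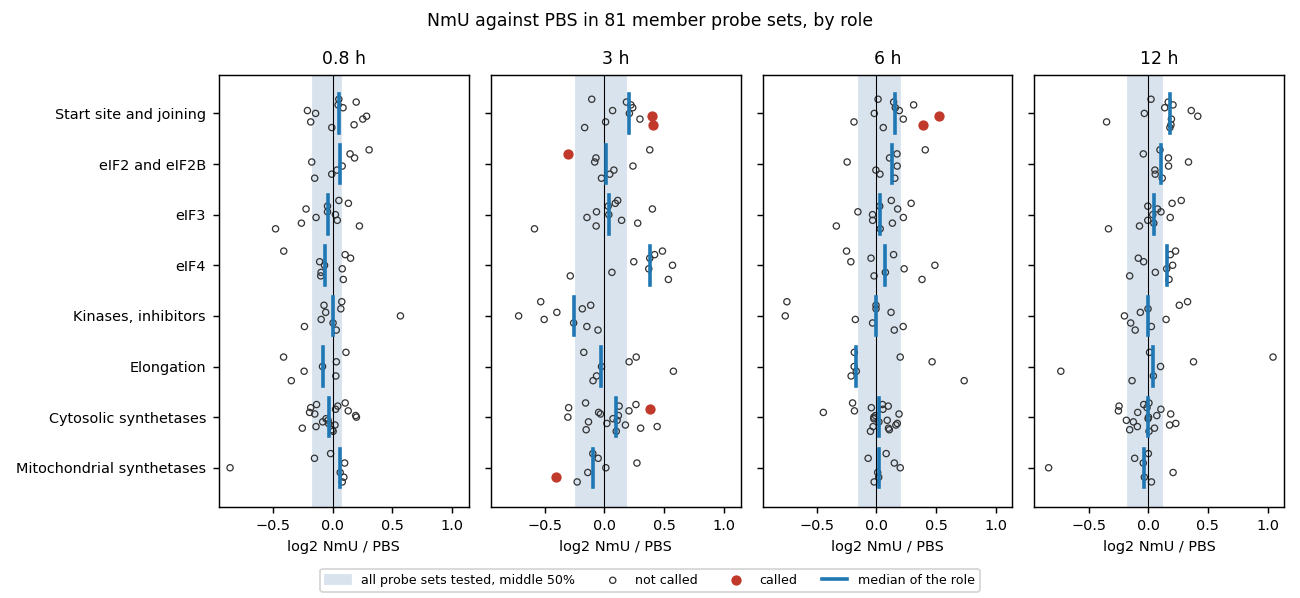
Log2 difference between NmU and PBS for each of the 81 tested members (circles), by role and time, with the median of each role (blue bar) and the middle 50% of all probe sets tested (shaded). Filled red circles are members called at an adjusted p under 0.05, which are 5 at 3 h and 2 at 6 h. The kinases and inhibitors lie below 0 at 3 h and 8 of 9 eIF4 probe sets above it. Roles were set with earlier results of these data known.

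Among the factors that find the start site and join the subunits, Eif1a was the gene with most calls. It encodes eIF1A, which binds the ribosomal A site during scanning. For probe set 93058_at, signals in PBS at 3 h were 488.1, 680.2, 616 and 572.8, and in NmU 789.1, 791.8 and 731. Every NmU array lay above every PBS array. The log2 difference was 0.40 ± 0.13 (SE; adjusted p = 0.0444 by limma).

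At 6 h the PBS arrays of 93058_at read 424.8, 452.5, 566.5 and 465.7 and the NmU arrays 677.8, 678.4, 760.6 and 617, again without overlap. The difference was 0.52 ± 0.12, or 1.44-fold (adjusted p = 0.00743), and this call held without each array in turn (adjusted p 0.00347 to 0.0388). It was lost under the common-median scaling (adjusted p = 0.0866). At 0.8 h and 12 h the groups did not overlap either, with differences of 0.28 and 0.41 that were not called (adjusted p = 0.567 and 0.0918).

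The other Eif1a probe set, 103708_at, gave a like course. At 3 h its PBS arrays read 376.4, 271.6, 300.6 and 309 and its NmU arrays 396.1, 424.4 and 422.4, which did not overlap. The difference was 0.41 ± 0.11, or 1.33-fold, with a 95% interval of 0.17 to 0.64 (adjusted p = 0.0199). At 6 h PBS gave 265.2, 239.7, 271.6 and 244.3 and NmU 317.1, 379.3, 310.7 and 330.1. These did not overlap, and the difference was 0.39 ± 0.11, or 1.31-fold (adjusted p = 0.0294). At 0.8 h and 12 h its differences of 0.18 and 0.19 were not called.

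A test of any NmU effect over the 4 times called both Eif1a probe sets (adjusted p = 0.00448 for 103708_at and 4.14e-04 for 93058_at). Whether the effect differed between times was not called for either (0.628 and 0.796). For 103708_at, the 3 h call was lost without PBS at 3 h replicate 2 or NmU at 3 h replicate 2 or 3 (adjusted p up to 0.0722), and the 6 h call without PBS at 6 h replicate 1, 2 or 4 or NmU at 6 h replicate 2. The 3 h call of 93058_at was lost without PBS at 3 h replicate 1, 3 or 4 or any 1 of the 3 NmU arrays at 3 h (adjusted p up to 0.145), and, at adjusted p up to 0.0515, without PBS at 0.8 h replicate 3, NmU at 0.8 h replicate 2, PBS at 6 h replicate 2 or 4, NmU at 6 h replicate 1 or PBS at 12 h replicate 3. Under common-median scaling the 6 h call of 103708_at was lost (0.196). The close paralogue Eif1ax had 2 probe sets and no call, at 0.01 and 0.21 at 3 h. At 0.8, 6 and 12 h both had lower means in NmU than in PBS. At 12 h 160111_at read 147.7, 156.3, 159.4 and 176.9 in PBS and 119.6, 128.4, 122.8 and 131 in NmU, without overlap. Whether probes of one gene also bind transcripts of the other was not tested.

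The rest of this group was not called. Eif5, the GTPase-activating protein of eIF2, stood at 0.30 at 3 h (adjusted p = 0.182), and Eif6, which keeps the large subunit free, at 0.24 (0.151). 9 of the 11 probe sets in the group lay above 0 at 3 h, with a median of 0.21, and 9 of 11 at 12 h, with a median of 0.18. Of all probe sets tested, 45.6% and 45.9% lay above 0 at these times.

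Among eIF2 and its exchange factor eIF2B, Eif2b5 moved. It encodes the catalytic epsilon subunit of eIF2B. At 3 h probe set 96822_at read 285.9, 255.8, 281.9 and 257.7 in PBS and 243.5, 211.2 and 202 in NmU. All NmU arrays were lower, and the difference was -0.31 ± 0.08, with PBS 1.24 times NmU (adjusted p = 0.00868).

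At 6 h Eif2b5 read 245.4, 223.9, 238.7 and 236.4 in PBS and 276.3, 257.3, 258 and 272.8 in NmU. Here all NmU arrays were higher, by 0.17, without a call (adjusted p = 0.184). At 0.8 h the difference was 0.15 (0.732) and at 12 h -0.04 (0.881). The change of the NmU effect from 0.8 to 3 h was -0.45 ± 0.10 (adjusted p = 0.0127) and from 3 to 6 h 0.48 ± 0.10 (0.0226).

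Eif2b5 was the 1 member called for an effect that differed between times (adjusted p = 0.0162; 1.23% of members against 4.04% of all). It was also the 1 member called for the change from 0.8 to 3 h (3.29% of all were) and from 3 to 6 h (0.719% of all), and no member was called from 6 to 12 h (0.101% of all). The call at 3 h was lost without NmU at 3 h replicate 3 (adjusted p = 0.0767), as was that for the change from 0.8 to 3 h (0.0532). The difference between times was not called without NmU at 3 h replicate 2 or 3. The change from 3 to 6 h lost its call without PBS at 3 h replicate 3, NmU at 3 h replicate 2 or 3, PBS at 6 h replicate 2 or NmU at 6 h replicate 1 (adjusted p up to 0.114), and under common-median (0.242) and quantile scaling (0.0599). Its second probe set, 160804_at, was at -0.01, 0.04, 0.03 and 0.06 at the 4 times and was not called, so that the fall was measured by 1 of 2 probe sets. Whether they read different transcripts was not tested. Eif2b2, the beta subunit, stood at 0.34 at 12 h (adjusted p = 0.159).

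**Figure D2:**
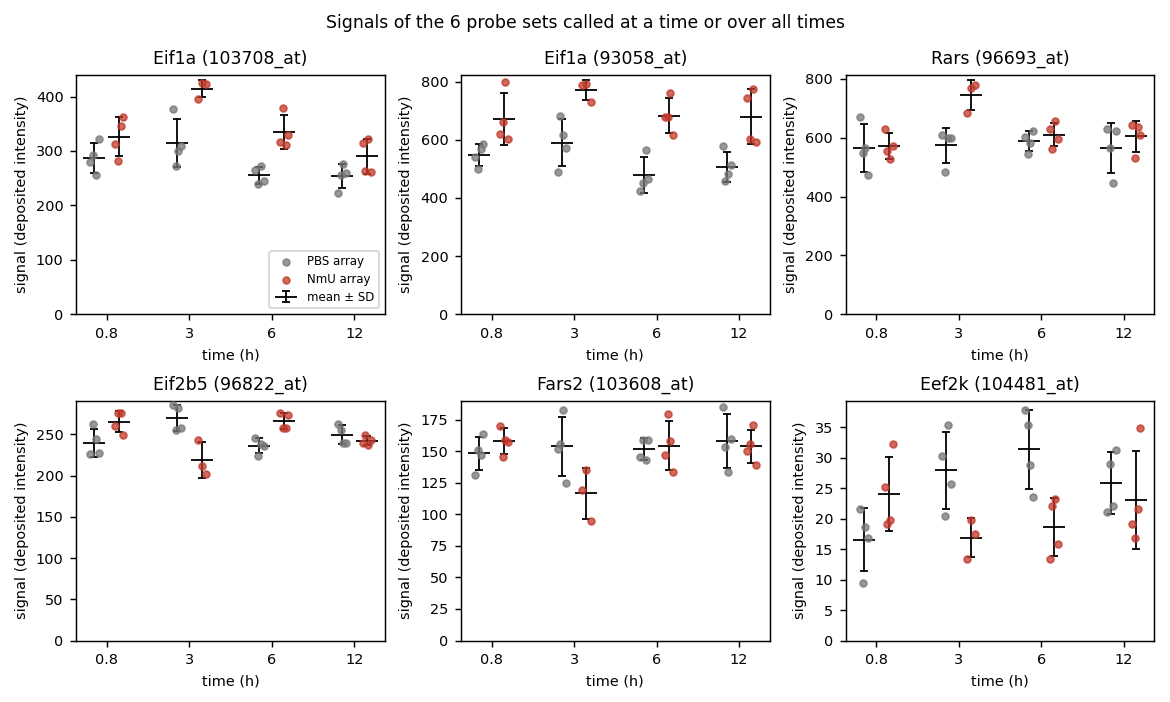
Deposited signal (linear scale from 0) on each array against time for the 6 probe sets called at a time or over all times, with PBS arrays in grey, NmU arrays in red and the mean ± SD in black. Both Eif1a probe sets are higher in NmU at 3 and 6 h, Rars is higher and Eif2b5 and Fars2 are lower at 3 h.

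eIF3, the largest scaffold of the small subunit, gave no call among 11 tested probe sets for 10 genes. At 3 h not 1 of these reached an unadjusted p under 0.05, and limma called none. Their median was 0.04 at 3 h, and -0.01 under quantile scaling. The bright subunits were bounded closely: at 3 h the 95% interval of Eif3c ran from -0.14 to 0.21 and that of Eif3l 96942_at from -0.17 to 0.23. Eif3d was at 0.28 at 12 h (adjusted p = 0.213).

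The eIF4 factors, which handle the cap and unwind the leader, lay mostly above 0 at 3 h without passing the test. 8 of 9 tested probe sets were above 0 (45.6% of all were), with a median of 0.38. 5 had an unadjusted p under 0.05, as did 24.1% of all. The count of 8 of 9 was the same under common-median and quantile scaling, with medians of 0.41 and 0.42. The median was -0.07 at 0.8 h, 0.08 at 6 h and 0.15 at 12 h.

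Eif4g2 encodes DAP5, a relative of the eIF4G scaffold. Its PBS arrays at 3 h read 68, 103.3, 81.6 and 120.6 and its NmU arrays 138.2, 124.9 and 133.7. They did not overlap, and the difference was 0.54 ± 0.17 (adjusted p = 0.0502). It was chosen for mention after its values were seen, as were the next 2 genes. With each array left out in turn, Eif4g2 was called at 3 h in 6 of 31 fits and not in 25. The adjusted p by limma ran from 0.0117, without PBS at 3 h replicate 4, to 0.170, and the difference went down to 0.39. Under quantile scaling the adjusted p was 0.0350.

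Eif4g3, another eIF4G scaffold, read 107, 104.1, 104.1 and 84.4 in PBS at 3 h and 120.3, 117.4 and 166.8 in NmU. The difference was 0.42 ± 0.14 (adjusted p = 0.0627 by limma, and 0.0392 under quantile scaling). With each array left out in turn, Eif4g3 was called in 0 of 31 fits (adjusted p 0.0539 to 0.362), and the difference went down to 0.26. Eif4a1, the leader helicase, read 205.9, 303.3, 289.5 and 307.5 in PBS and 391.7, 380.7 and 446.5 in NmU, a difference of 0.57 ± 0.22 (adjusted p = 0.0952). In both the NmU arrays lay above the PBS arrays. Eif4e, the cap-binding protein, had a wide interval at 3 h, from -0.13 to 1.10. Eif4b 100557_g_at, a helper of the helicase, stood at -0.29, the other Eif4b probe set tested at 0.06.

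The kinases, binding proteins and the methyltransferase that act on these factors lay on the opposite side at 3 h. All 9 tested probe sets were below 0, where 45.6% of all lay above it. Their median was -0.26, and none was called by limma. 3 had an unadjusted p under 0.05, as did 24.1% of all. The roles were set with earlier results of these data known, so these counts are a description and no test. All 9 were also below 0 under common-median and quantile scaling (medians -0.23 and -0.25). At 0.8, 6 and 12 h the medians were 0.0040, -0.0034 and -0.0023.

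Eef2k encodes the kinase that inhibits eEF2. It was called for any effect over the 4 times (adjusted p = 0.0333) and at no single time. At 3 h it read 30.3, 20.4, 35.3 and 25.7 in PBS and 13.4, 19.7 and 17.4 in NmU, and at 6 h 37.9, 35.3, 28.8 and 23.5 against 13.4, 22.1, 23.3 and 15.8. NmU arrays were lower at both times without overlap, by 0.72 ± 0.28 and 0.76 ± 0.26 on the log2 scale (adjusted p = 0.103 and 0.0904).

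At 0.8 h Eef2k was 0.57 ± 0.26 in the other direction (adjusted p = 0.687). A difference between times was not called (0.0809). In PBS alone its level at 3 and 6 h stood 0.79 and 0.96 above that at 0.8 h, without a call (adjusted p = 0.403 and 0.282). These signals lie close to the 20.2 units that the filter required.

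Of the 4 eIF2 kinases, Eif2ak3 and Eif2ak4 also had signals close to the filter. Eif2ak3 (PERK, the kinase of the endoplasmic reticulum) read 20.6, 34.8, 23.3 and 26.5 in PBS at 3 h and 16.6, 20.2 and 17.9 in NmU, which did not overlap, at -0.51 ± 0.20 (adjusted p = 0.119). Eif2ak4 (GCN2, which senses uncharged tRNA) read 37.2, 32.4, 27.5 and 24.5 in PBS and 21.6, 18.5 and 22.3 in NmU, at -0.53 ± 0.28 (0.258). Again the NmU arrays were lower. Eif2ak1, the heme-regulated kinase, and Eif2ak2, the kinase activated by double-stranded RNA, had mean signals of 144.4 and 113.2 and stood at -0.19 ± 0.14 and -0.40 ± 0.26 at 3 h (adjusted p = 0.472 and 0.367). Eif4ebp1 and Eif4ebp2 101072_at, which encode inhibitors of eIF4E, stood at -0.15 and -0.26 (0.563 and 0.148).

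Over the 4 times, 4 of 81 members had a called NmU effect of any kind (4.94%, against 11.6% of all): both Eif1a probe sets, Eif2b5 and Eef2k. The count was 2 without NmU at 3 h replicate 3. It was 8 without both PBS at 3 h replicate 4 and NmU at 6 h replicate 4, arrays singled out after the data were seen. In PBS alone, no member was called for a change with time by limma's F test, where 9 had an unadjusted p under 0.05 (11.1%, against 8.74% of all). Over all probe sets 0.0126% were called.

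The elongation factors gave no call among 7 tested probe sets. Eef1a1, which delivers charged tRNAs, read 9278.7, 7870.4, 9660.2 and 9545.4 in PBS at 3 h and 9550.1, 7722.6 and 9568.3 in NmU. These overlapped throughout, and the difference was -0.03, with a 95% interval of -0.31 to 0.26. Eef2, the translocase, read 3108.4, 2532.5, 2626.6 and 2526.6 in PBS and 2314.2, 2275 and 2573.1 in NmU, which overlapped, at -0.17 (-0.41 to 0.06). The dim probe sets of Eef1a2 and Eef1b2 had 95% intervals at 3 h that reached past 1 log2 unit.

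Of 19 tested probe sets for 16 cytosolic synthetases, Rars alone was called, at 3 h. It encodes arginyl-tRNA synthetase. Its PBS arrays at 3 h read 610.4, 483.5, 600.4 and 600.1 and its NmU arrays 685.4, 769.5 and 780.3. They did not overlap, and the difference was 0.38 ± 0.12, or 1.30-fold (adjusted p = 0.0426).

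At 0.8, 6 and 12 h Rars stood at 0.02, 0.05 and 0.11. The change of its effect from 0.8 to 3 h was not called (adjusted p = 0.283), and the call at 3 h was lost without PBS at 3 h replicate 2 or 3 or any 1 of the 3 NmU arrays (adjusted p up to 0.145). Aars, for alanine, read 380.7, 377, 407.2 and 376.3 in PBS at 3 h and 301.5, 295.5 and 338.8 in NmU. The NmU arrays were all lower, and the difference of -0.31 ± 0.12 was not called (adjusted p = 0.0965). 12 of the 19 probe sets lay above 0 at 3 h, beside 45.6% of all, with a median of 0.10. Yars had a probe set on each side, at 0.44 and -0.13.

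Among the 7 probe sets of 5 mitochondrial synthetases, Fars2, for phenylalanine, was lower at 3 h. PBS arrays read 151.7, 155.9, 182.7 and 124.8 and NmU arrays 119.3, 135.3 and 95, which overlapped in 1 array of each group. The difference was -0.40 ± 0.13, with PBS 1.32 times NmU (adjusted p = 0.0494). This call was lost in 24 of 31 fits that left out 1 array, among them those without PBS at 3 h replicate 1, 2 or 3 or NmU at 3 h replicate 1 or 3, with adjusted p up to 0.301. The others were not called at any time by limma. 5 of 7 lay below 0 at 3 h, where 45.6% of all lay above it, with a median of -0.10.

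**Figure D3:**
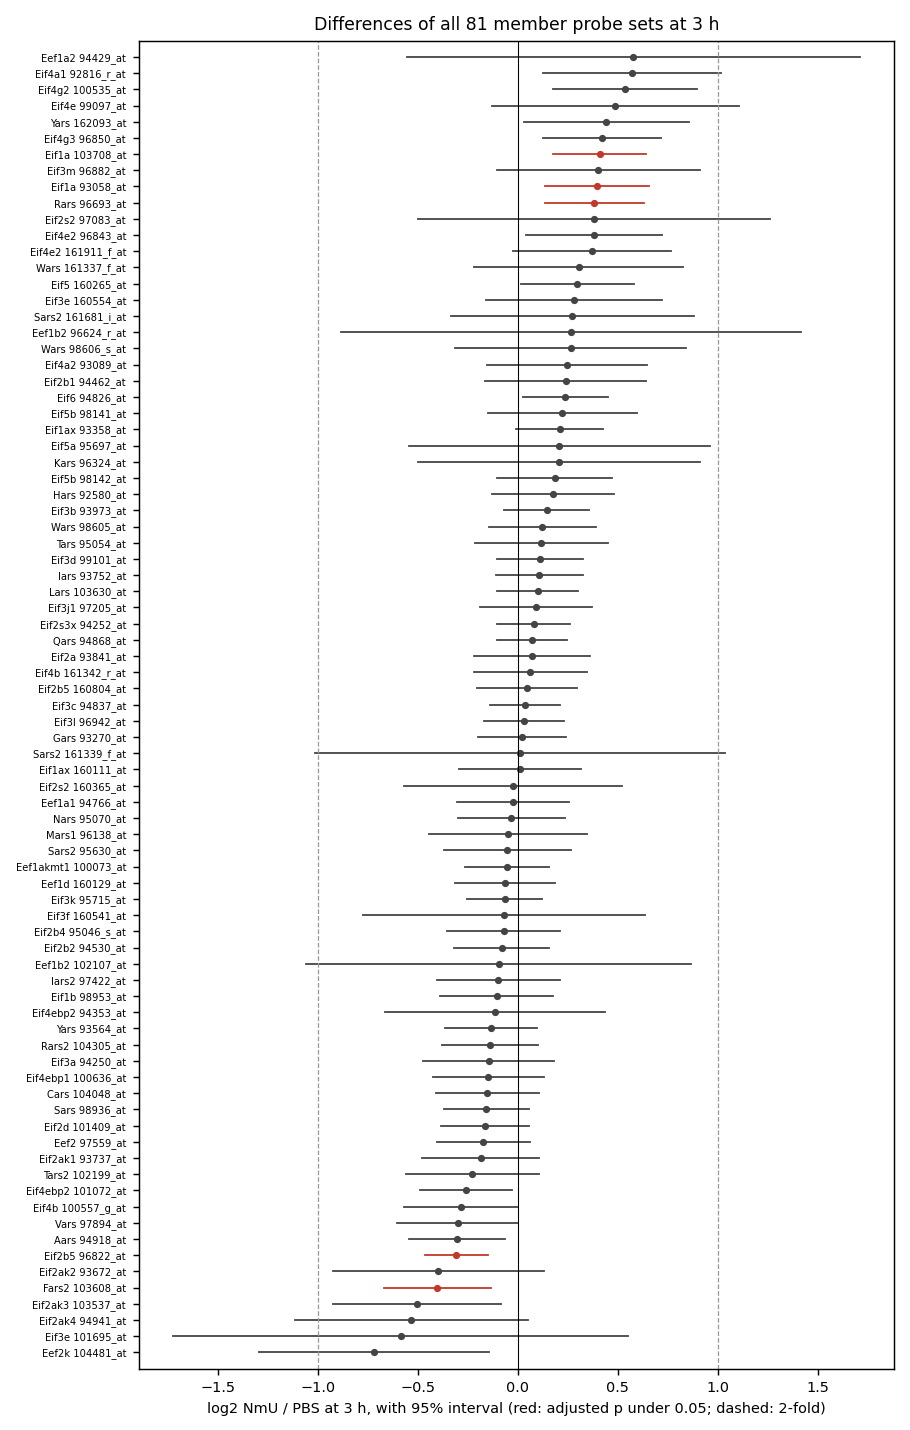
Log2 difference between NmU and PBS at 3 h for all 81 tested members (dots, sorted) with the 95% interval (lines). Dashed lines mark a 2-fold change; 71 intervals lie within them, and the 5 called members are in red.

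13 genes had several tested probe sets. All probe sets of a gene had the same sign in 8 of these genes at 0.8 h, 6 at 3 h, 9 at 6 h and 6 at 12 h. Eif1a, Eif1ax and Eif5b were the genes with 1 sign within each of the 4 times.

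Genes that work beside the members were read from 6 lists, each gene by the probe set with its highest mean signal. Some genes had more, such as Etf1 with 5 and Mknk2 and Asns with 2 each, and the rest were not read. The 5 synthetases and scaffold proteins outside the naming rule (Eprs, Farsa, Farsb, Aimp1 and Aimp2) gave no call by limma at any time; 1 had an unadjusted p under 0.05 at 3 h and 1 at 6 h. The 4 poly(A)-binding proteins and partners gave none either, nor did 4 of 5 mitochondrial translation factors that were tested, of which 1 had an unadjusted p under 0.05, at 6 h. Among 5 genes of termination and recycling, Etf1, the release factor that reads stop codons, rose at 3 h by 0.37 ± 0.09 (adjusted p = 0.00679). This was the brightest of its 5 probe sets. All 5 genes lay above 0 at 3 h, beside 45.6% of all probe sets tested, with a median of 0.29. The Etf1 call held without each array in turn (adjusted p up to 0.0433). It was lost with the replicate number as a block (0.0509) and in a fit of only the 2 groups compared (0.160).

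18 of 21 genes of the amino acid response were tested. 1 was called at 0.8 h, 2 at 3 h, 2 at 6 h and 1 at 12 h, all higher, where 0.845%, 10.2%, 4.88% and 1.26% of all probe sets were called in either direction. Counted in either direction, the calls at 3 h were close to the share over all. Of all probe sets, 4.44% were called higher at 3 h and 2.85% at 6 h, and each count here rests on 1 or 2 genes. The list's medians at the 4 times were 0.0017, 0.09, 0.12 and 0.0027. Genes above 0 numbered 9, 11, 11 and 9 of 18, beside 39.2%, 45.6%, 53.1% and 45.9% of all probe sets. Among those below 0, Ddit3 stood at -0.53 at 3 h and Shmt2 at -0.48 at 12 h, without a call (adjusted p = 0.119 and 0.146 by limma). Ppp1r15a, which directs dephosphorylation of eIF2, rose at 0.8 h by 0.79 ± 0.16 (adjusted p = 0.00857; 0.0532 with the replicate block). The amino acid carriers Slc3a2 and Slc1a5 rose at 3 h by 0.53 ± 0.16 and 0.37 ± 0.11 (both 0.0326), and Slc1a5 at 6 h by 0.63 ± 0.10 (2.98e-04).

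Both calls at 3 h were lost without PBS at 3 h replicate 2 or 3 or NmU at 3 h replicate 1 or 2, that of Slc3a2 also without PBS at 3 h replicate 1 and that of Slc1a5 also without NmU at 3 h replicate 3 (adjusted p up to 0.129 and 0.161). Nupr1, a stress-induced regulator, rose at 6 h by 0.97 ± 0.17 (adjusted p = 8.46e-04) and at 12 h by 0.71 ± 0.17 (0.0322). Its 12 h call was lost without PBS at 12 h replicate 1 or 4 or NmU at 12 h replicate 2, 3 or 4 (up to 0.120). Atf4 itself stood at 0.15 at 3 h and 0.25 at 6 h (0.386 and 0.122), and Asns, a standard target, at -0.05 and -0.0091.

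Of the signalling genes that control translation through mTOR and MNK, 10 of 11 were tested. 1 was called at 0.8 h, 2 at 3 h and 2 at 6 h, all lower. Of all 7930 probe sets tested, 0.845%, 10.2% and 4.88% were called in either direction at these times. Those called lower were 5 at 0.8 h, 454 at 3 h (5.73%) and 161 at 6 h. The list's calls rest on 2 genes, Ddit4 and Mknk2. Ddit4, which restrains mTOR complex 1, fell by 0.67 ± 0.13 at 0.8 h, 0.88 ± 0.14 at 3 h and 1.11 ± 0.13 at 6 h (adjusted p = 0.00273, 5.71e-05 and 1.83e-06). Its call at 0.8 h was lost under common-median scaling (0.0507) and that at 3 h in the fit of only those 2 groups (0.0508). Mknk2, a kinase of eIF4E, fell in the brighter of its 2 probe sets by 0.68 ± 0.17 at 3 h and 0.55 ± 0.16 at 6 h (0.00868 and 0.0397). The 3 h call of Mknk2 was lost without NmU at 3 h replicate 2 (0.0664), and the 6 h call without any 1 of the 4 PBS arrays or NmU replicates 1 to 3 at 6 h (up to 0.136). The list gave no call at 12 h by limma, where 1 gene had an unadjusted p under 0.05. Its medians were 0.01, -0.26, -0.22 and -0.08 at the 4 times.

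**Figure D4:**
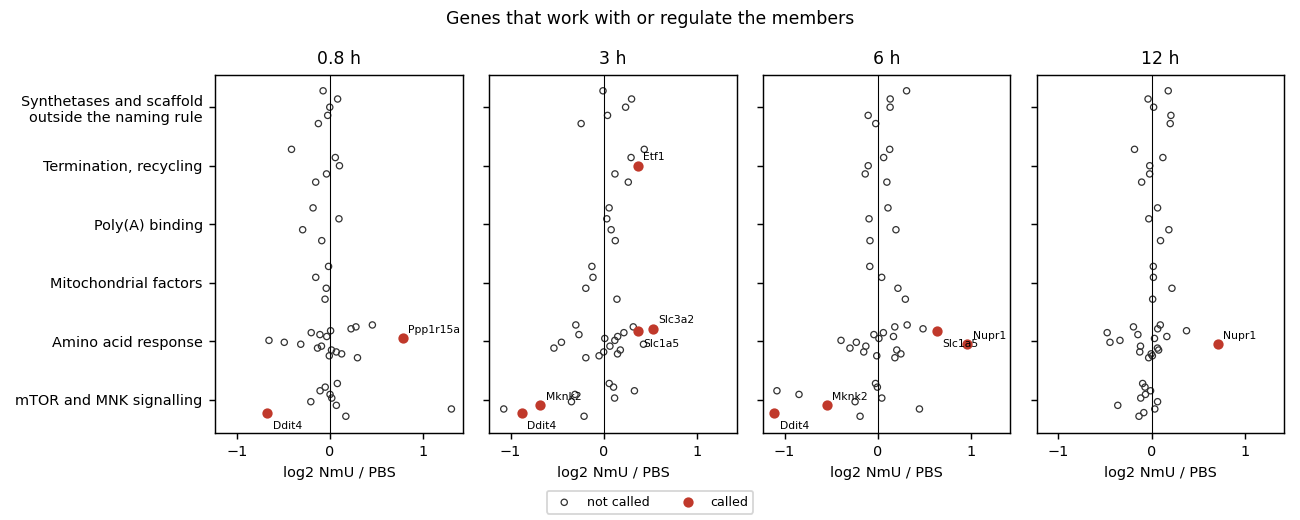
Log2 difference between NmU and PBS for the tested genes of 6 lists that act beside the members (circles), by time, each gene by its brightest probe set. Named red points are genes called at an adjusted p under 0.05: Ppp1r15a, Slc3a2, Slc1a5, Nupr1 and Etf1 are above 0 and Ddit4 and Mknk2 below.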

How the data were processed

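Total RNA from 31 samples was measured on 1 array each. The authors deposited 1-colour intensities per probe set, unlogged, of which 162 were 0. Their scanner, probe summary and build were not given in the sources used here. The mean of each array after trimming 2% from each end was equal across arrays to within 1 signal unit, so the deposited intensity values appear to have been scaled by the authors to a common mean, and no further normalisation was applied.

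Groups and replicate numbers came from sample titles. Genes came from the platform annotation, where 10833 of 12422 probe sets have 1 symbol, 396 several and 1193 none. All 92 members were found in RefSeq with the same symbol. Signals below the 20th percentile (5.8) were set to it before log2. limma 3.58.1 in R 4.3.3 fitted 8 group means to 31 arrays (23 residual and 2.72 prior degrees of freedom), with Benjamini-Hochberg adjustment over 7930 probe sets. The fit was tested on simulated data.

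The members, roles and gene lists were chosen with earlier results of these data known. Named members are those called at any time, up to 10 with the largest rise and fall at each time, the 2 brightest and 2 dimmest, those whose probe sets differ, and those that changed most over time in PBS among those called, of which there were none; from each list, up to 4 genes with the lowest p. For most members under the rule the text gives counts and ranges. Alternatives were other scalings, floors, filters, a replicate block, smaller fits, trend and robust settings, and each array left out. Deviations of same-numbered NmU and PBS samples from their group means correlated with a median of 0.06 (-0.22 to 0.20), above 0.1 in 5 of 15 pairs. Other pairs within a time had a median of -0.01 (-0.24 to 0.26). Whether the numbers mark paired samples was not tested.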

Additional observations from a re-analysis of the deposited data

Results flagged for a closer look

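Rars in PBS at 3 h read 483.5 in replicate 2, and 600.1 to 610.4 in the other 3 arrays. The gap to the nearest array was 0.919 of the range of the group, above Dixon's 95% critical value for 4 arrays. Eif4a1 in NmU at 0.8 h read 240 in replicate 4 and 346.8 to 357.2 in the others (0.911 of the range). Eif4g2 in PBS at 12 h read 116 in replicate 1 and 95.2 to 98.3 in the others (0.851). These were 3 of 70 groups of 4 arrays examined over 10 probe sets, and chance gives such a gap in about 5% of groups.

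The NmU effect on Eif2b5 96822_at differed between the 4 times by limma's F test (adjusted p = 0.0162), with log2 differences of 0.15, -0.31, 0.17 and -0.04. The cause was not tested.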

How the results depend on the processing

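The main fit did not pair samples by replicate number. With the replicate number as a block within each time, 1 member was called at 6 h, where Eif1a 103708_at lost its call (adjusted p = 0.0792). At 3 h the block lost 4 of the 5 calls, those of Eif1a 103708_at (0.0797), Eif1a 93058_at (0.0622), Rars (0.0610) and Fars2 (0.0575), and it called 5 in all there, Eif4g2 among them (0.0408). Under common-median scaling the members' median log2 difference was 0.085 at 0.8 h and -0.034 at 6 h. That scaling called 1 member at 3 h (15 at an unadjusted p under 0.05), 0 by limma at 6 h (9 unadjusted) and 0 for a difference between times (5 unadjusted). Quantile scaling, a floor at the 40th percentile and a filter at the 60th percentile each called 2 members for a difference between times. Quantile scaling split the calls at 3 h into 5 higher and 1 lower, against 3 and 2. Fits of only the 2 groups compared called 0 members at 3 h (12 unadjusted) and 0 at 6 h (8 unadjusted). Without PBS at 3 h replicate 4 and NmU at 6 h replicate 4 together, an alternative chosen after seeing the data, 8 members had an effect at any time.

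With each array left out in turn, the count called ranged from 1 to 6 at 3 h, 1 to 3 at 6 h, 2 to 6 at any time and 0 to 2 for a difference between times (0 without NmU at 3 h replicate 2 or 3; 2 without PBS at 0.8 h replicate 4, NmU at 0.8 h replicate 1 or PBS at 12 h replicate 1). It stayed at 0 at 0.8 h, at 12 h and for time in PBS. No value changed sign while called. Fars2 lost its call at 3 h under common-median scaling (adjusted p = 0.136), as did Rars (0.114), Eif1a 93058_at (0.0935) and Eif2b5 (0.0530). Of the list genes, Slc3a2 and Slc1a5 at 3 h lost their calls under common-median scaling (0.0610 and 0.0506), Mknk2 at 6 h with the block (0.0687) and without the filter (0.0556), and Nupr1 at 12 h without the filter (0.0511). These calls and that of Mknk2 at 3 h were also lost in fits of only 2 groups (0.0558 to 0.230). Dim probe sets such as those of Eef1b2 have wide intervals, and the number of arrays limits the precision.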
